A study of Mus musculus with 16 samples.

Results

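The comparison described here is the difference between 2 responses: how group 2 innate lymphoid cells (ILC2s) of Pac1-/- mice changed their transcripts when IL-33 was added, minus how WT ILC2s did. It uses the 8 libraries of the series without a neuropeptide, of 16 in all, chosen by their labels: 2 libraries each of WT and Pac1-/- ILC2s given IL-7 at 100 ng/mL alone, and 2 each of WT and Pac1-/- ILC2s given IL-7 at 100 ng/mL plus IL-33 at 100 ng/mL, all for 4 h. Both genotypes were on the C57BL/6J background, the Pac1+/+ mice (WT here) and the Pac1-/- mice (labelled Pac1-KO) were 6 to 8 weeks old, and the deletion was not restricted to ILC2s. Lung ILC2s were sorted after depletion of other lineages and expanded for 1 to 2 weeks in IL-2 at 50 ng/mL and IL-7 at 100 ng/mL, so that all 4 groups share a period in culture, and each library was made from about 500 cells. The labels do not say whether the 2 libraries of a group came from separate animals or cultures, so the p-values measure only the spread between these libraries.

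ILC2s are tissue-resident lymphocytes without a rearranged antigen receptor, which make IL-5, IL-13, IL-9, GM-CSF and amphiregulin. IL-33, an alarmin that epithelial cells release when damaged, binds the receptor ST2 (*Il1rl1*) with IL-1RAcP (*Il1rap*) and signals through MyD88, IRAK kinases and TRAF6 to NF-κB and the MAP kinases, and thereby drives the cells' cytokine production. PAC1, encoded by *Dusp2*, is a nuclear dual-specificity phosphatase that removes phosphates from MAP kinases. The interaction value used throughout is the log2 change with IL-33 in Pac1-/- minus the log2 change with IL-33 in WT. A negative value means that the response of Pac1-/- ILC2s lay below that of WT, which can arise from a smaller rise, a larger fall or a different level before IL-33 was added, and therefore the levels in all 4 groups are given in counts per 1000000 counts (CPM, scaled by trimmed mean of M values) beside it.

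The 8 libraries held 9665251 to 15963357 counts. The number of genes with at least 1 count was 13661 to 14286 in 6 libraries and 16211 and 15497 in the Pac1-/- libraries with IL-33, and after thinning by calculation to 9665251 counts it was still 15604 and 15497 in those libraries against 13445 to 14022 in the others. The replicates of that group also differed most from each other, and their scaling factors were 1.09 and 1.22 against 0.916 to 1.03 elsewhere. Transcripts of the mitochondrial genome took up 8.60% to 10.2% of the counts in the 4 libraries with IL-7, 4.83% and 7.96% in WT with IL-33, and 3.94% and 6.58% in Pac1-/- with IL-33. *Dusp2* itself had 57 counts in 1 WT library with IL-7 and 0 in the other 7 libraries, a level at which the genotype labels cannot be checked. The 11 ILC2 markers summed to 12102 to 15039 CPM in all 8 libraries, with none of them at 0.

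No gene had a response to IL-33 that differed between genotypes at a fold above 1.5 and a Benjamini-Hochberg adjusted p under 0.05 in edgeR's quasi-likelihood test: 0 of 12980 genes tested, or 0%, with a smallest adjusted p of 0.797. At an unadjusted p under 0.05 there were 734 genes, 5.65% of those tested, of which 417 (3.21%) lay above 0 and 317 (2.44%) below. DESeq2 at the same cutoff called 44 genes, or 0.339%, of which 33 had a group at or below the floor of 3 counts per library and 11 were above it in all 4 groups: *Ccl5*, *Nkg7*, *Sub1*, *Armc8* and *Fam204a* below 0, and *Anxa4*, *Abhd17a*, *Ints6*, *Lrba*, *Cpox* and *Dlat* above 0. The responses themselves had few calls. Averaged over both genotypes, IL-33 lowered 10 genes (0.077%) and raised 0 (0%), although 784 genes (6.04%) had an unadjusted p under 0.05 in the upward direction and DESeq2 called 215 raised. In WT alone *Klrc1* fell (0.0077% of genes called), and in Pac1-/- alone *Ccl5* and *Klrc1* fell (0.0154%). Across 4946 genes of at least 20 CPM, Pearson's r between the fitted responses of WT and Pac1-/- was 0.333. Single-library responses made from non-overlapping libraries had r of 0.0966 to 0.135 within WT, 0.221 to 0.279 within Pac1-/- and 0.0211 to 0.402 between genotypes. Those values are across genes, which are not independent replicates, and the ranges within and between genotypes overlapped.

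**Figure D1:**
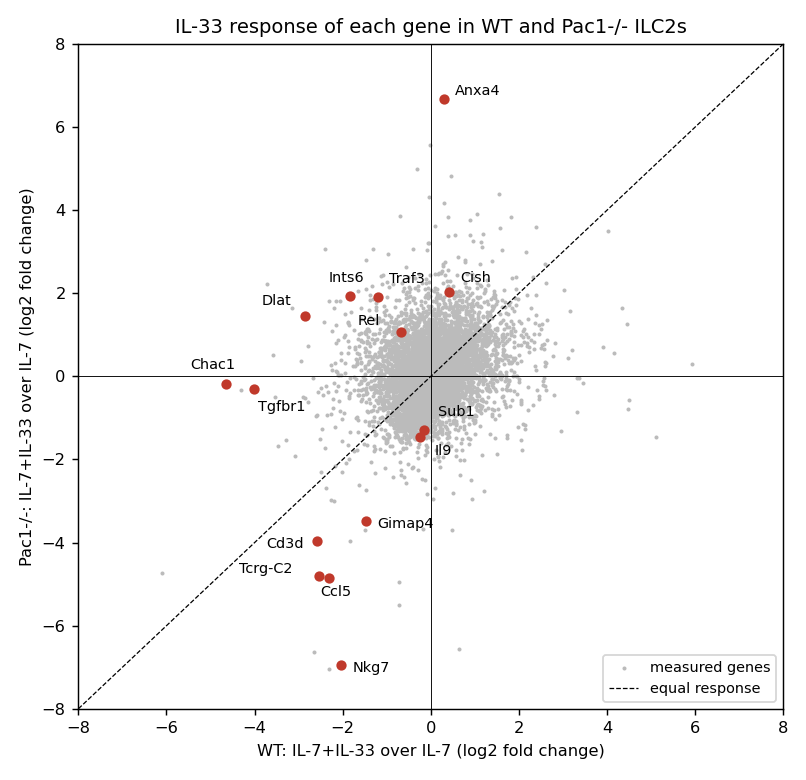
Log2 response to IL-33 in WT ILC2s (horizontal axis) against that in Pac1-/- ILC2s (vertical axis), 1 point per gene measured in all 4 groups, with a dashed line of equal responses and some of the genes described in the text named. *Ccl5*, *Gimap4* and *Sub1* sit below the line of equal responses, and *Ints6*, *Tgfbr1* and *Traf3* above it.

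*Ccl5*, which encodes the chemokine RANTES that attracts T cells and eosinophils, had the smallest unadjusted interaction p of the 6538 genes measured in all 4 groups (a mean of at least 10 CPM and every group above the floor). It stood at 511 and 346 CPM in WT with IL-7 and at 58.6 and 114 CPM in WT with IL-33, and at 569.6 and 487 CPM in Pac1-/- with IL-7 and 22.3 and 14.5 CPM in Pac1-/- with IL-33 (chr11:83525778-83530518, minus strand, GRCm38). All 4 libraries with IL-33 lay below all 4 with IL-7, and both Pac1-/- libraries with IL-33 lay below both WT libraries with IL-33, while the IL-7 groups overlapped. The mean with IL-33 was 4.97-fold lower than with IL-7 in WT and 28.8-fold lower in Pac1-/-. On the log2 scale that is -2.31 in WT and -4.85 in Pac1-/-, of which the fall in Pac1-/- passed the test (edgeR quasi-likelihood, Benjamini-Hochberg adjusted p = 0.023) and the WT value did not (adjusted p = 0.52). The call in Pac1-/- was lost with the replicate number as a block (adjusted p = 0.0766) and with limma voom (adjusted p = 0.0645). The interaction of *Ccl5* was -2.53 ± 0.55 (SE, unadjusted p = 0.0015), with a 95% interval of -3.79 to -1.28. Its adjusted p was 0.797 by edgeR and 0.00338 by DESeq2, and leaving out each library in turn gave interaction values of -2.94 to -1.97.

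The other genes that fell with IL-33 in the averaged response are known from T cells, NK cells and other cytotoxic lymphocytes, apart from *Uqcrq* and *Zfand1*. *Gimap4*, a GTPase of lymphocytes, stood at 64.6 and 70.4 CPM in WT with IL-7 and at 22 and 26.9 CPM in WT with IL-33, and at 56.7 and 72.8 CPM in Pac1-/- with IL-7 and 6.03 and 5.61 CPM in Pac1-/- with IL-33. For *Gimap4* the log2 response was -1.47 in WT and -3.48 in Pac1-/-, and the interaction was -2.01 ± 0.58 (SE, unadjusted p = 0.0077). *Cd3d*, a chain of the CD3 complex, stood at 75.9 and 80.8 CPM in WT with IL-7 and at 11.5 and 14.4 CPM in WT with IL-33, and at 107 and 80.2 CPM in Pac1-/- with IL-7 and 8.22 and 3.83 CPM in Pac1-/- with IL-33. The libraries with IL-33 lay below those with IL-7 in both genotypes for both genes, and those of Pac1-/- below those of WT. For *Cd3d* the interaction was -1.36 ± 0.66 (SE, unadjusted p = 0.07). *Tcrg-C2*, a constant segment of the T cell receptor gamma locus whose reads can be shared with its near-identical neighbours, stood at 22.4 and 41.3 CPM in WT with IL-7 and at 6.65 and 4.22 CPM in WT with IL-33, and at 47.1 and 67.3 CPM in Pac1-/- with IL-7 and 1.95 and 2.13 CPM in Pac1-/- with IL-33. For *Tcrg-C2* the interaction was -2.26 ± 0.84 (SE, unadjusted p = 0.026). *Uqcrq*, a subunit of respiratory complex III, stood at 1573 and 1378 CPM in WT with IL-7 and at 480.1 and 750.5 CPM in WT with IL-33, and at 1584 and 1334 CPM in Pac1-/- with IL-7 and 414 and 456 CPM in Pac1-/- with IL-33, with an interaction of -0.49 ± 0.36 (SE, unadjusted p = 0.21). Leaving out each library in turn gave -0.78 to -0.13 for *Uqcrq* and -2.05 to -0.91 for *Cd3d*. Over these 5 genes measured in all 4 groups (*Ccl5*, *Gimap4*, *Cd3d*, *Tcrg-C2*, *Uqcrq*) the median interaction was -2.01 and all 5 were below 0, whereas 51.1% of 6538 genes so measured were below 0. The 5 genes were chosen by the averaged response, which includes the Pac1-/- libraries with IL-33, whose replicates differed most. Low values in those libraries favour both a call and an interaction below 0. The count is therefore a description and not a fair comparison with all genes. The other called genes had a group at or below the floor and do not enter this count. Among them *Zfand1* was undetected with IL-33 in WT only, so that its interaction lay above 0.

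For the NK receptor genes *Klrc1* and *Klrd1* the fall with IL-33 reached the floor in both genotypes, so that no difference between the genotypes could be measured. *Klrc1*, which encodes the receptor NKG2A and has close paralogs, stood at 88.8 and 115 CPM in WT with IL-7 and at 0 and 0 CPM in WT with IL-33, and at 89 and 71.5 CPM in Pac1-/- with IL-7 and 0 and 0 CPM in Pac1-/- with IL-33, which is at least 330-fold lower with IL-33 in WT and at least 315-fold lower in Pac1-/-, counting 3 reads per library as the floor. *Klrd1*, encoding its partner CD94, stood at 42.6 and 42 CPM in WT with IL-7 and at 0 and 0 CPM in WT with IL-33, and at 46.9 and 71.5 CPM in Pac1-/- with IL-7 and 0 and 0 CPM in Pac1-/- with IL-33, or at least 137-fold lower in WT and at least 232-fold lower in Pac1-/-. *Klrk1* (NKG2D) stood at 57.9 and 70.5 CPM in WT with IL-7 and at 0 and 0.103 CPM in WT with IL-33, and at 57.3 and 61.9 CPM in Pac1-/- with IL-7 and 0.0591 and 0.68 CPM in Pac1-/- with IL-33, of which the last value rests on 8 counts and lies above the floor. All 4 libraries with IL-33 were under 1 CPM for these 3 receptors. *Ms4a4b*, a membrane protein of T and NK cells, stood at 374 and 422 CPM in WT with IL-7 and at 3.29 and 0 CPM in WT with IL-33, and at 448 and 321 CPM in Pac1-/- with IL-7 and 0 and 0.34 CPM in Pac1-/- with IL-33. *Zfand1* differed from the rest: it stood at 16.1 and 23.6 CPM in WT with IL-7 and at 0 and 0 CPM in WT with IL-33, and at 37.2 and 30.7 CPM in Pac1-/- with IL-7 and 12.2 and 9.1 CPM in Pac1-/- with IL-33, and was undetected with IL-33 in WT only. *Nkg7*, a cytotoxic granule protein, did not reach the floor in WT: it stood at 58.3 and 59.9 CPM in WT with IL-7 and at 11.6 and 17.3 CPM in WT with IL-33, and at 104 and 96 CPM in Pac1-/- with IL-7 and 0 and 1.7 CPM in Pac1-/- with IL-33, with an interaction of -4.92 ± 1.5 (SE, unadjusted p = 0.01), and 1 of the Pac1-/- libraries with IL-33 held no count.

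The marker lists of other lymphocytes hold some of the genes just described (*Nkg7* and *Klrk1* among the ILC1 and NK markers, *Cd3d* among the T cell markers), so that their sums in part restate those values. The 9 ILC1 and NK markers summed to 275 to 284 CPM in WT and 405 to 453 CPM in Pac1-/- with IL-7, and to 11.9 to 17.4 CPM in WT and 3.40 to 5.56 CPM in Pac1-/- with IL-33. *Tbx21*, *Klrb1c* and *Klre1* were at 0 in all 4 libraries with IL-33, and *Tbx21* was at 0 in all 8. The 11 T cell markers summed to 1101 to 1158 CPM over the 4 libraries with IL-7, to 666 to 824 CPM in WT with IL-33 and to 399 to 635 CPM in Pac1-/- with IL-33, with *Cd4* and *Cd8a* at 0 in all 8 libraries. In *Cd3g*, which stood at 164 and 264 CPM in WT with IL-7 and at 149 and 114 CPM in WT with IL-33, and at 186 and 178 CPM in Pac1-/- with IL-7 and 55.7 and 31.1 CPM in Pac1-/- with IL-33, the interaction was -1.37 ± 0.53 (SE, unadjusted p = 0.031). In bulk libraries fewer cells of a type and less RNA per cell cannot be told apart, and the part of these markers in the responses of *Ccl5*, *Gimap4*, *Cd3d* and *Nkg7* was not tested.

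**Figure D2:**
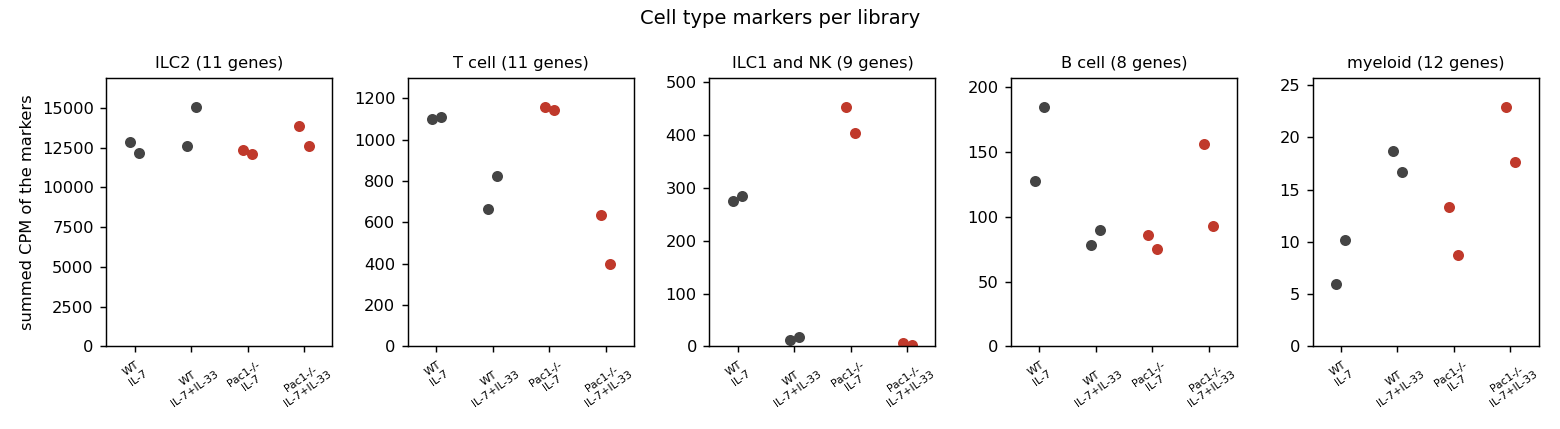
Summed CPM of fixed marker lists for ILC2s, T cells, ILC1 and NK cells, B cells and myeloid cells in each of the 8 libraries, by genotype and treatment, 1 point per library. The ILC2 sum stays at 12102 to 15039 CPM, while the ILC1 and NK sum drops from 275 or more CPM with IL-7 to 17.4 or fewer CPM with IL-33.

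Apart from *Ccl5*, the genes with the smallest p below 0 (mean of at least 10 CPM, single-library responses of the genotypes not overlapping, a condition that 51.2% of all tested genes met, 23.8% below and 27.4% above) were mostly higher in Pac1-/- than in WT with IL-7 and lower with IL-33. *Sub1*, a transcriptional coactivator, stood at 11212 and 11156 CPM in WT with IL-7 and at 8859 and 11136 CPM in WT with IL-33, and at 16018 and 12573 CPM in Pac1-/- with IL-7 and 5664 and 5966 CPM in Pac1-/- with IL-33. For *Sub1* the log2 response was -0.16 in WT and -1.30 in Pac1-/-, and the interaction was -1.14 ± 0.27 (SE, unadjusted p = 0.0029), with a 95% interval of -1.77 to -0.51. Both Pac1-/- libraries with IL-33 were below the other 6 libraries for *Sub1*. *Tmem60* stood at 152 and 165 CPM in WT with IL-7 and at 154 and 167 CPM in WT with IL-33, and at 269 and 201 CPM in Pac1-/- with IL-7 and 95.1 and 67.2 CPM in Pac1-/- with IL-33, with an interaction of -1.56 ± 0.41 (SE, unadjusted p = 0.005). *Dpy30*, a subunit of the histone H3K4 methyltransferase complexes, stood at 311 and 317 CPM in WT with IL-7 and at 237 and 286 CPM in WT with IL-33, and at 396 and 287 CPM in Pac1-/- with IL-7 and 103 and 119.6 CPM in Pac1-/- with IL-33, with an interaction of -1.36 ± 0.37 (SE, unadjusted p = 0.0057). *Mrps16*, a protein of the small mitochondrial ribosomal subunit, stood at 205 and 198 CPM in WT with IL-7 and at 180.4 and 226 CPM in WT with IL-33, and at 255 and 295 CPM in Pac1-/- with IL-7 and 120.4 and 104 CPM in Pac1-/- with IL-33, with an interaction of -1.31 ± 0.36 (SE, unadjusted p = 0.006). In these 3 genes, too, the Pac1-/- libraries with IL-33 were the lowest of the 8, and the WT responses lay between -0.27 (*Dpy30*) and 0.02 (*Tmem60*).

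Among less abundant transcripts, *Fam204a* stood at 38.6 and 50.8 CPM in WT with IL-7 and at 63.4 and 60.3 CPM in WT with IL-33, and at 96.4 and 91.3 CPM in Pac1-/- with IL-7 and 30.7 and 28.3 CPM in Pac1-/- with IL-33, with an interaction of -2.14 ± 0.50 (SE, unadjusted p = 0.0024). *Rnase4*, a secreted ribonuclease, stood at 22.9 and 17.3 CPM in WT with IL-7 and at 22.9 and 40.7 CPM in WT with IL-33, and at 73.1 and 61.5 CPM in Pac1-/- with IL-7 and 18.3 and 15.3 CPM in Pac1-/- with IL-33, with an interaction of -2.67 ± 0.69 (SE, unadjusted p = 0.0044). *Armc8*, a subunit of the CTLH ubiquitin ligase, stood at 25.5 and 21.3 CPM in WT with IL-7 and at 85.4 and 96 CPM in WT with IL-33, and at 85.6 and 51.2 CPM in Pac1-/- with IL-7 and 47.9 and 54.2 CPM in Pac1-/- with IL-33, with an interaction of -2.38 ± 0.56 (SE, unadjusted p = 0.0024). The Pac1-/- libraries with IL-33 were the lowest of the 8 for *Fam204a* and overlapped with WT with IL-7 for *Rnase4*, whereas for *Armc8* the WT libraries with IL-7 were the lowest. *Ankmy2* stood at 9.52 and 3.4 CPM in WT with IL-7 and at 17.6 and 37.1 CPM in WT with IL-33, and at 30.1 and 35.7 CPM in Pac1-/- with IL-7 and 10.4 and 8.93 CPM in Pac1-/- with IL-33, with an interaction of -3.85 ± 1.05 (SE, unadjusted p = 0.006). *Arv1*, which acts in sterol transport, stood at 0 and 0 CPM in WT with IL-7 and at 17.5 and 16.2 CPM in WT with IL-33, and at 7.36 and 16.4 CPM in Pac1-/- with IL-7 and 28 and 18.4 CPM in Pac1-/- with IL-33, so that its interaction rested on the WT libraries with IL-7, where it was undetected.

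Above 0 the same rule named *Zfand1*, described above and undetected with IL-33 in WT, and the following genes. *Ints6*, a subunit of the Integrator complex that processes small nuclear RNAs, stood at 43.5 and 31.2 CPM in WT with IL-7 and at 9.79 and 11.2 CPM in WT with IL-33, and at 16.1 and 7.53 CPM in Pac1-/- with IL-7 and 38 and 52.5 CPM in Pac1-/- with IL-33. For *Ints6* the log2 response was -1.83 in WT and 1.94 in Pac1-/-, and the interaction was 3.77 ± 0.83 (SE, unadjusted p = 0.0018), with a 95% interval of 1.86 to 5.67. Thus *Ints6* was lower in Pac1-/- than in WT with IL-7 and higher with IL-33, without overlap in either case. *Tgfbr1*, the type I receptor for TGF-β, stood at 18.9 and 32.1 CPM in WT with IL-7 and at 1.3 and 1.85 CPM in WT with IL-33, and at 35.4 and 29.5 CPM in Pac1-/- with IL-7 and 18.4 and 34.2 CPM in Pac1-/- with IL-33. For *Tgfbr1* the log2 response was -4.01 in WT and -0.31 in Pac1-/-, and the interaction was 3.70 ± 0.91 (SE, unadjusted p = 0.0032), with the 2 WT libraries with IL-33 standing below the other 6. *Dlat*, a component of the pyruvate dehydrogenase complex, stood at 32 and 37.6 CPM in WT with IL-7 and at 5.96 and 3.61 CPM in WT with IL-33, and at 4.72 and 20.2 CPM in Pac1-/- with IL-7 and 30.9 and 37.6 CPM in Pac1-/- with IL-33, with an interaction of 4.31 ± 1.10 (SE, unadjusted p = 0.0041). *Ipmk*, an inositol phosphate kinase, stood at 37.1 and 49.5 CPM in WT with IL-7 and at 18 and 18.6 CPM in WT with IL-33, and at 9.53 and 9.96 CPM in Pac1-/- with IL-7 and 35.3 and 24.1 CPM in Pac1-/- with IL-33, with an interaction of 2.84 ± 0.74 (SE, unadjusted p = 0.0047). *Dlat* and *Ipmk* shared the crossing pattern, higher in WT with IL-7 and higher in Pac1-/- with IL-33. *Pdcd7* stood at 72.9 and 42.1 CPM in WT with IL-7 and at 31 and 35.2 CPM in WT with IL-33, and at 7.54 and 7.85 CPM in Pac1-/- with IL-7 and 22 and 33.3 CPM in Pac1-/- with IL-33, with an interaction of 2.63 ± 0.72 (SE, unadjusted p = 0.0059). *Anxa4*, a calcium-dependent phospholipid-binding protein, stood at 12.6 and 30.2 CPM in WT with IL-7 and at 42.1 and 10.4 CPM in WT with IL-33, and at 0 and 0.809 CPM in Pac1-/- with IL-7 and 49.4 and 37.7 CPM in Pac1-/- with IL-33, with an interaction of 6.38 ± 1.71 (SE, unadjusted p = 0.0053). The *Anxa4* value rested on the Pac1-/- libraries with IL-7, in which it was at 0 or under 1 CPM, and with single libraries omitted it was 5.43 to 11.79. *Ercc6l2*, a DNA repair helicase, stood at 9.79 and 18.6 CPM in WT with IL-7 and at 10.016 and 37.7 CPM in WT with IL-33, and at 0 and 0 CPM in Pac1-/- with IL-7 and 12 and 9.01 CPM in Pac1-/- with IL-33. *Rfc4*, a subunit of the clamp loader of DNA replication, stood at 11 and 14.5 CPM in WT with IL-7 and at 31.3 and 12.1 CPM in WT with IL-33, and at 0 and 0 CPM in Pac1-/- with IL-7 and 13.2 and 2.55 CPM in Pac1-/- with IL-33. Both of them were undetected in Pac1-/- with IL-7, and no fitted value is given.

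*Igkc*, the immunoglobulin kappa constant gene, stood at 35.5 and 59.4 CPM in WT with IL-7 and at 10.8 and 13.6 CPM in WT with IL-33, and at 18.9 and 18.2 CPM in Pac1-/- with IL-7 and 40.0 and 31.7 CPM in Pac1-/- with IL-33, with an interaction of 2.91 ± 0.73 (SE, unadjusted p = 0.0037). *Ighm*, the mu constant gene, stood at 85 and 87 CPM in WT with IL-7 and at 56.2 and 70.6 CPM in WT with IL-33, and at 22.3 and 33.4 CPM in Pac1-/- with IL-7 and 100.3 and 39.9 CPM in Pac1-/- with IL-33, with an interaction of 1.76 ± 0.69 (SE, unadjusted p = 0.033). The 8 B cell markers, which include both genes, summed to 75.0 to 86.1 CPM in Pac1-/- with IL-7 and 92.8 to 156 CPM with IL-33. In WT the sums were 128 to 185 CPM with IL-7 and 78.4 to 90.0 CPM with IL-33. These sums in part restate the values of *Igkc* and *Ighm*. Of the 3 markers measured in all 4 groups, 2 had an interaction above 0 and 1, *Cd79b*, below 0 (-0.38). The part of the B cell markers in the interaction of *Igkc* was not tested.

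**Figure D3:**
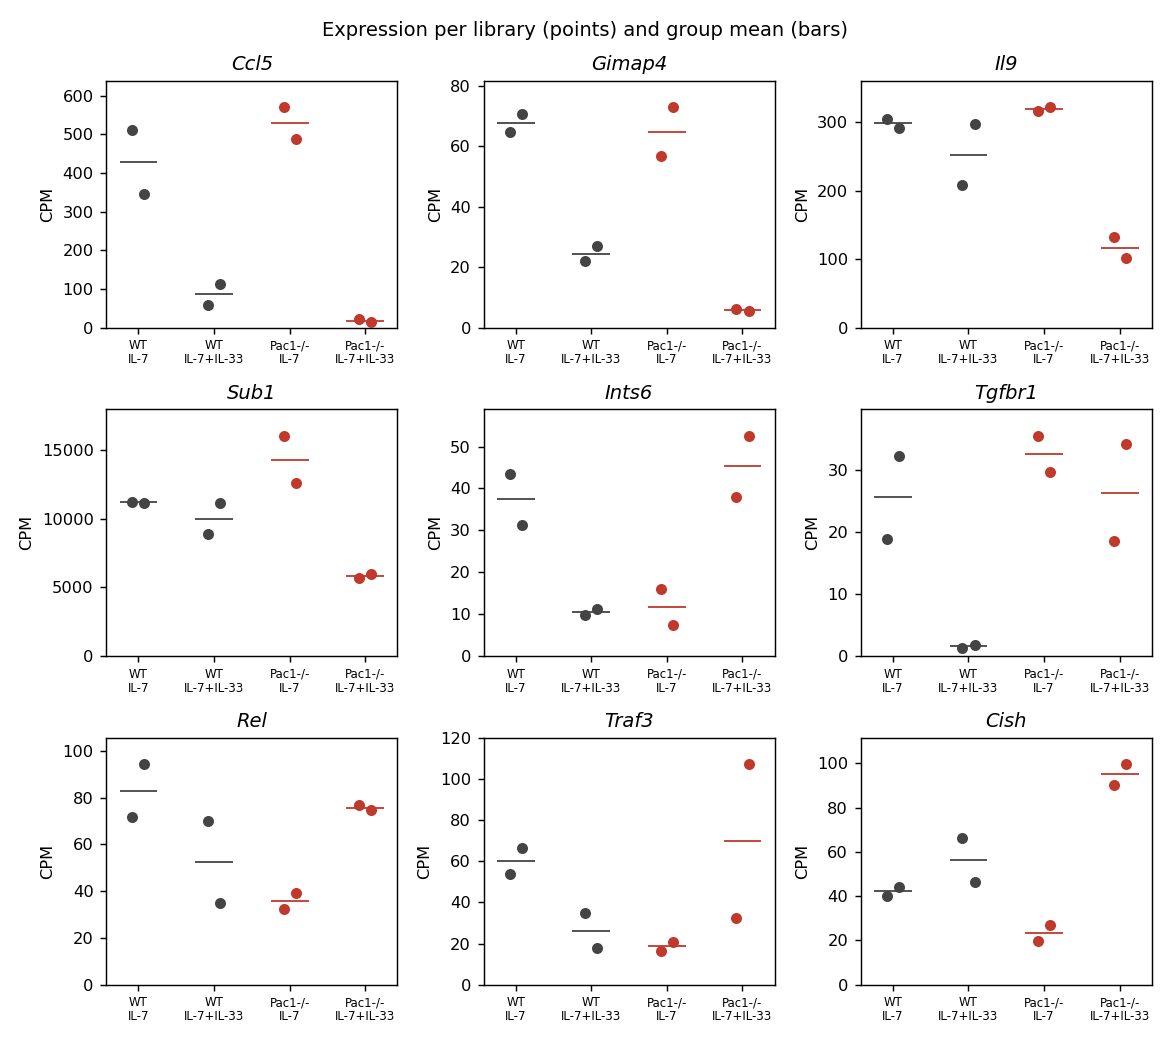
CPM of *Ccl5*, *Gimap4*, *Il9*, *Sub1*, *Ints6*, *Tgfbr1*, *Rel*, *Traf3* and *Cish* in each of the 8 libraries on linear axes that start at 0, by genotype and treatment, 1 point per library, with a bar at each group mean. *Ccl5* is lowest in Pac1-/- with IL-33, at 22.3 and 14.5 CPM, while *Ints6* is lower in Pac1-/- than in WT with IL-7 and higher with IL-33.

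Among the 133 measured genes with an interaction above 0 at an unadjusted p under 0.05, the median difference of Pac1-/- from WT was -0.98 (log2) with IL-7 and 0.94 with IL-33, and for 54.1% of them the difference was larger with IL-7. Among the 156 measured genes below 0 at that threshold the medians were 0.36 and -0.74, and for 28.2% the difference was larger with IL-7, against 45.4% of all measured genes. These genes were chosen by the interaction itself, so the values describe which libraries carried it and support nothing further.

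The interaction also moved with the abundance of the transcript. For genes of 10 to 30 CPM (2545 genes, mean over the 8 libraries, not corrected for length) the median interaction was 0.22, and it was 0.05 at 30 to 100 CPM (2313 genes), -0.20 at 100 to 300 CPM (1116 genes), -0.37 at 300 to 1000 CPM (424 genes) and -0.45 at 1000 CPM or above (140 genes), where 83.6% were below 0. With IL-7 the median difference between genotypes lay between -0.01 and 0.03 in all 5 classes. In the most abundant class the median single-library response was -0.21 and -0.04 in WT and -0.45 and -0.75 in Pac1-/-, and the interaction was -0.72 without the first and -0.33 without the second Pac1-/- library with IL-33. Scaling by library totals alone moved the median of all measured genes from -0.02 to 0.18 and left the median at -0.23 for the most abundant class and 0.43 for the least abundant. Exon length moved with abundance: the median interaction was -0.47 for genes with under 1000 exonic bases and 0.30 for those with 8000 or more, where the single-library medians were -0.05 and 0.46 in Pac1-/- and -0.12 and -0.07 in WT with IL-33. The part of length and of the number of genes detected in these libraries was not tested.

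**Figure D4:**
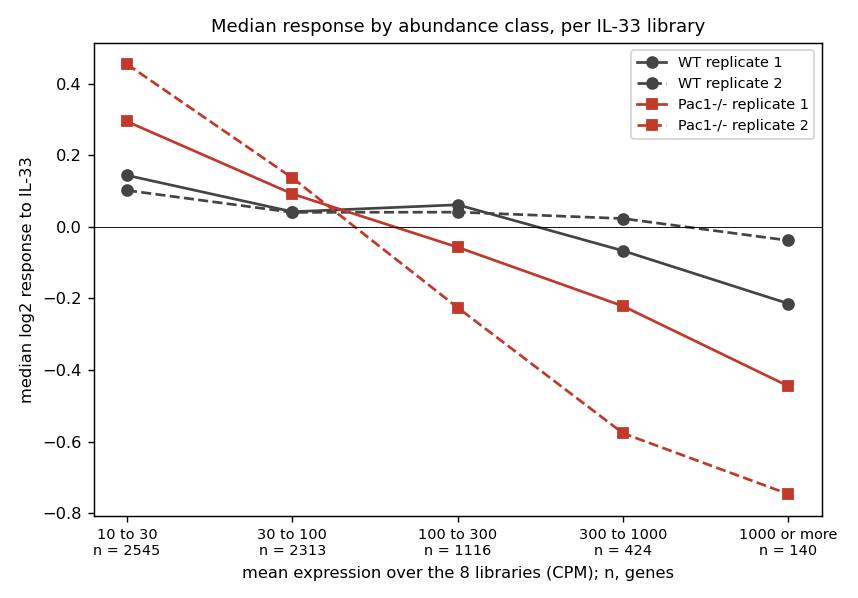
Median log2 response to IL-33 in each library with IL-33, against the mean of the IL-7 libraries of its genotype, for measured genes in 5 classes of mean CPM. The Pac1-/- libraries run from above 0 in the class of 10 to 30 CPM to -0.45 and -0.75 in the class of 1000 CPM or above, and the WT libraries run between 0.14 and -0.21.

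Genes with an averaged response below 0 had a lower median response in Pac1-/- than in WT. Of all tested genes 5.54% had such a response at an unadjusted p under 0.05, and over the 512 of them measured in all 4 groups the median response was -0.47 in WT and -1.01 in Pac1-/-, with an interaction below 0 for 432 of them (84.4%). The medians of the single libraries were -0.72 and -0.23 in WT and -0.94 and -1.06 in Pac1-/-, and the median interaction of -0.55 was -0.26 without the second WT library with IL-33. These 512 genes had a median level of 181 CPM and a median of 1989 exonic bases. An interaction below 0 was found for 51.1% of all measured genes. Among those of at least 100 CPM the share was 84.9% with 1000 to 2000 exonic bases and 70.7% with 2000 to 4000. The choice of the 512 genes also used the Pac1-/- libraries with IL-33. Over the 432 measured genes with an averaged response above 0 at an unadjusted p under 0.05 the median responses were 0.89 in WT and 1.05 in Pac1-/-. Of them 58.6% had an interaction above 0, against 48.9% of all measured genes. Groups of abundant, mostly short transcripts showed the same direction. Of 77 nuclear-encoded respiratory chain genes 64 had an interaction below 0 (83.1%, median -0.55), as did 60 of 78 cytosolic ribosomal protein genes (76.9%, median -0.23) and 10 of the 11 mitochondrially encoded proteins measured (90.9%, median -0.40). The single-library responses of the genotypes overlapped for the ribosomal protein genes, with medians of -0.50 and -0.09 in WT and -0.62 and -0.40 in Pac1-/-. For the mitochondrially encoded proteins the medians were -0.94 and -0.23 in WT and -1.02 and -0.97 in Pac1-/-, with the second WT library nearest to 0 in both groups. For comparison, measured genes of at least 100 CPM with under 1000 and with 1000 to 2000 exonic bases both had a median of -0.49. Of these, 91.9% and 84.9% had an interaction below 0, so shares of this size were not particular to the 3 groups. These 3 groups were chosen after their values were seen.

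The receptor and its proximal signalling genes had no member that passed the test and none of 16 tested at an unadjusted p under 0.05 (background 5.65% in either direction). *Il1rl1* stood at 865 and 985 CPM in WT with IL-7 and at 623 and 1046 CPM in WT with IL-33, and at 809 and 784 CPM in Pac1-/- with IL-7 and 541 and 969 CPM in Pac1-/- with IL-33. Its interaction was 0.07 ± 0.47 (SE, unadjusted p = 0.89), with a 95% interval of -1.02 to 1.15, which leaves room for a difference in either direction. *Irak2*, a kinase of the receptor complex, stood at 28.3 and 22.4 CPM in WT with IL-7 and at 3.67 and 12.8 CPM in WT with IL-33, and at 20.7 and 14.3 CPM in Pac1-/- with IL-7 and 15.4 and 42.9 CPM in Pac1-/- with IL-33, with an interaction of 2.36 ± 1.14 (SE, unadjusted p = 0.071). The adaptor *Myd88* stood at 13.3 and 20.4 CPM in WT with IL-7 and at 29.1 and 36.2 CPM in WT with IL-33, and at 18 and 16 CPM in Pac1-/- with IL-7 and 82.3 and 27.8 CPM in Pac1-/- with IL-33, with an interaction of 0.74 ± 0.86 (SE, unadjusted p = 0.41). With single libraries omitted the interaction was 1.45 to 3.52 for *Irak2* and -0.28 to 1.33 for *Myd88*. Over the 14 measured members the median interaction was 0.07, against -0.02 over all 6538 measured genes, and it was -0.07 without the second Pac1-/- library with IL-33.

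NF-κB subunits, their inhibitors and the TRAF adaptors lay mostly above 0. None of 23 members was called, 3 had an unadjusted p under 0.05 above 0 (background 3.21%) and 0 below, and 20 of 22 measured members had an interaction above 0 (48.9% of all measured genes), with a median of 0.65 against -0.02 over all measured genes. The median response was -0.05 in WT and 0.53 in Pac1-/-. *Traf3*, an adaptor that restrains the non-canonical pathway, stood at 54 and 66.6 CPM in WT with IL-7 and at 34.6 and 17.6 CPM in WT with IL-33, and at 16.5 and 20.7 CPM in Pac1-/- with IL-7 and 32.6 and 107 CPM in Pac1-/- with IL-33. For *Traf3* the log2 response was -1.21 in WT and 1.90 in Pac1-/-, and the interaction was 3.11 ± 0.88 (SE, unadjusted p = 0.0072). The Pac1-/- value with IL-33 rested largely on the second library, at 107 CPM, and omitting single libraries gave interactions of 2.02 to 3.69. *Rel*, encoding the subunit c-Rel, stood at 71.8 and 94.2 CPM in WT with IL-7 and at 69.8 and 34.7 CPM in WT with IL-33, and at 32.5 and 39.3 CPM in Pac1-/- with IL-7 and 76.9 and 74.6 CPM in Pac1-/- with IL-33, with an interaction of 1.74 ± 0.60 (SE, unadjusted p = 0.02). The atypical inhibitor *Nfkbid* stood at 37.5 and 33.1 CPM in WT with IL-7 and at 11 and 11.6 CPM in WT with IL-33, and at 5.99 and 2.83 CPM in Pac1-/- with IL-7 and 12.1 and 5.7 CPM in Pac1-/- with IL-33, with an interaction of 2.65 ± 1.07 (SE, unadjusted p = 0.037). In both *Rel* and *Nfkbid* the Pac1-/- libraries with IL-7 lay below those of WT. The main subunits had smaller values: *Nfkb1* had 0.30 ± 0.50 (SE, unadjusted p = 0.56) and *Rela* had 0.73 ± 0.84 (SE, unadjusted p = 0.41). The inhibitors *Nfkbia* and *Tnfaip3* had interactions of 0.15 ± 0.42 (SE, unadjusted p = 0.74) and 0.60 ± 0.39 (SE, unadjusted p = 0.16). Without the first Pac1-/- library with IL-33 the median of the list was 0.87 with 17 members above 0, and without the second it was 0.31 with 13 above 0.

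The promoters of *Traf3* and *Rel* are shown because both genes belong to a pathway whose factors bind κB sequences. In the 250 bases before the RefSeq start (GRCm38.p6), written 5′ to 3′ on the strand of the gene, capitals mark matches to GGGNNNNNCC on either strand. The *Traf3* window is chr12:111166120-111166369 on the plus strand and holds a match that begins 10 bases before the start. The *Rel* window is chr11:23770970-23771219 on the minus strand and holds matches that begin 142, 92, 91 and 55 bases before the start, the middle pair overlapping.
Traf3: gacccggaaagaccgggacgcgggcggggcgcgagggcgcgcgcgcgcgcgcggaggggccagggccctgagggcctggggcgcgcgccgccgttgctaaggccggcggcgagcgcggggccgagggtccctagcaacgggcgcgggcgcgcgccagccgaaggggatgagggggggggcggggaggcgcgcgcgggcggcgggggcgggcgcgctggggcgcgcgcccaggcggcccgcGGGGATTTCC
Rel: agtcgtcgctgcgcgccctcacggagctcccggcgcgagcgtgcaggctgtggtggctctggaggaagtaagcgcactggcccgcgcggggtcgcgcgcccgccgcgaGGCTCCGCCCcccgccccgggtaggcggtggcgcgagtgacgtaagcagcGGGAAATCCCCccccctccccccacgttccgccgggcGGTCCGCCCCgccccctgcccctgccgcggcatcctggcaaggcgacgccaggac
Of 23 genes on the NF-κB list 19 had a promoter in the table, and 15 of those (78.9%) held such a match, against 45.4% of 27025 mouse promoters. The median GC content was 60.8% and 52%. Among the 10 genes named below 0 by their interaction, 6 of 8 promoters (75%, median GC 56%) held a match. Among the 10 named above 0, 5 of 8 (62.5%, median GC 63.6%) did, so a high share was not particular to the NF-κB list. TGANTCA, the AP-1 motif, was present in 3 of the 19 (15.8%) against 6.87% of all promoters, and TGACGTCA, the cAMP response element, in 0 of 19 against 1.62%. A match describes the letters of the window and not a bound site.

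The SOCS genes are feedback inhibitors of cytokine receptor signalling through JAK kinases. None of 8 was called, 3 of 8 had an unadjusted p under 0.05 above 0 (background 3.21%) and 0 below, and 5 of 6 measured members were above 0 (48.9% of all measured genes), with a median of 1.41 and a range of 0.90 to 1.87 when each library was left out. *Cish*, a target of STAT5, stood at 40.0 and 44.3 CPM in WT with IL-7 and at 66.1 and 46.5 CPM in WT with IL-33, and at 19.7 and 27 CPM in Pac1-/- with IL-7 and 90.4 and 99.6 CPM in Pac1-/- with IL-33. For *Cish* the log2 response was 0.42 in WT and 2.02 in Pac1-/-, and the interaction was 1.60 ± 0.55 (SE, unadjusted p = 0.018). The Pac1-/- libraries with IL-7 were the lowest of the 8 for *Cish* and those with IL-33 the highest. *Socs4* stood at 32.3 and 47.9 CPM in WT with IL-7 and at 22.4 and 43.2 CPM in WT with IL-33, and at 20.3 and 20.7 CPM in Pac1-/- with IL-7 and 52.8 and 66.5 CPM in Pac1-/- with IL-33, with an interaction of 1.82 ± 0.69 (SE, unadjusted p = 0.029). *Socs1*, the inhibitor of interferon and IL-2 family signalling, stood at 25.1 and 7.09 CPM in WT with IL-7 and at 9.71 and 8.04 CPM in WT with IL-33, and at 3.9 and 10.8 CPM in Pac1-/- with IL-7 and 17.7 and 51.9 CPM in Pac1-/- with IL-33, with an interaction of 3.09 ± 1.31 (SE, unadjusted p = 0.045) (1.91 to 4.01 with single libraries omitted).

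Among the effector cytokines no member was called, and of 16 tested 1 had an unadjusted p under 0.05 above 0 and 1 below (background 3.21% and 2.44%). *Il9* stood at 305 and 292 CPM in WT with IL-7 and at 209 and 297 CPM in WT with IL-33, and at 316 and 322 CPM in Pac1-/- with IL-7 and 132 and 101 CPM in Pac1-/- with IL-33. For *Il9* the log2 response was -0.24 in WT and -1.46 in Pac1-/-, and the interaction was -1.22 ± 0.38 (SE, unadjusted p = 0.012), with a 95% interval of -2.09 to -0.34. Both Pac1-/- libraries with IL-33 lay below the other 6. *Csf2*, which encodes GM-CSF, stood at 1517 and 1233 CPM in WT with IL-7 and at 1111 and 1737 CPM in WT with IL-33, and at 1339 and 1143 CPM in Pac1-/- with IL-7 and 811 and 657 CPM in Pac1-/- with IL-33, with an interaction of -0.81 ± 0.38 (SE, unadjusted p = 0.062). *Calca*, the gene of the neuropeptide CGRP, stood at 6618 and 5884 CPM in WT with IL-7 and at 5314 and 6128 CPM in WT with IL-33, and at 6027 and 5945 CPM in Pac1-/- with IL-7 and 4052 and 2542 CPM in Pac1-/- with IL-33, with an interaction of -0.74 ± 0.34 (SE, unadjusted p = 0.059). *Csf2* and *Calca* both averaged 1000 CPM or above, a class with a median interaction of -0.45 and 83.6% of genes below 0. In these 2 genes as well the Pac1-/- libraries with IL-33 were the lowest. No such order was seen for *Il5*, which stood at 6216 and 5414 CPM in WT with IL-7 and at 6522 and 7845 CPM in WT with IL-33, and at 5945 and 6059 CPM in Pac1-/- with IL-7 and 7523 and 5413 CPM in Pac1-/- with IL-33, with an interaction of -0.20 ± 0.30 (SE, unadjusted p = 0.52) and a 95% interval of -0.89 to 0.49. *Il13* stood at 23.6 and 5.67 CPM in WT with IL-7 and at 19.2 and 31.4 CPM in WT with IL-33, and at 11.3 and 17.9 CPM in Pac1-/- with IL-7 and 33.5 and 40.3 CPM in Pac1-/- with IL-33, with an interaction of 0.54 ± 1.05 (SE, unadjusted p = 0.62). For *Il13* both Pac1-/- libraries with IL-33 lay above the other 6, and omitting single libraries gave interactions of -0.82 to 1.23. *Areg*, encoding amphiregulin, had an interaction of 0.22 ± 0.44 (SE, unadjusted p = 0.63). *Il22* was detected at 10.2 and 11.4 CPM in Pac1-/- with IL-33, at 1.23 CPM in 1 WT library with IL-7 and at 0 in the other 5. The median interaction over the 9 measured cytokines, whose median level was 247 CPM, was -0.20. It was also -0.20 over all measured genes of 100 to 300 CPM.

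Of 8 chemokines tested, *Cxcl2* above 0 and *Ccl5* below 0 had an unadjusted p under 0.05 (background 3.21% and 2.44%). *Cxcl2*, a neutrophil chemoattractant, stood at 407 and 307 CPM in WT with IL-7 and at 274 and 324 CPM in WT with IL-33, and at 199.5 and 238 CPM in Pac1-/- with IL-7 and 414 and 290.4 CPM in Pac1-/- with IL-33, with an interaction of 0.94 ± 0.39 (SE, unadjusted p = 0.043). *Cxcl3* had an interaction of 0.47 ± 0.45 (SE, unadjusted p = 0.33) and *Ccl1* of 0.12 ± 0.38 (SE, unadjusted p = 0.77). The median over 6 measured members was 0.29, with 4 above 0 and 2 below. Among 30 cytokine and neuropeptide receptors tested, 2 had an unadjusted p under 0.05 above 0 and 0 below, against 3.21% and 2.44% of all genes. These were *Tgfbr1* and *Il10ra*, the ligand-binding chain of the IL-10 receptor, which stood at 34.8 and 37.2 CPM in WT with IL-7 and at 31.3 and 34.5 CPM in WT with IL-33, and at 17.2 and 16.9 CPM in Pac1-/- with IL-7 and 40.0 and 88.3 CPM in Pac1-/- with IL-33, with an interaction of 2.04 ± 0.70 (SE, unadjusted p = 0.018). The CGRP receptor genes *Calcrl*, *Ramp1* and *Ramp3* had interactions of -0.06 ± 0.73 (SE, unadjusted p = 0.93), -0.38 ± 0.41 (SE, unadjusted p = 0.38) and 0.80 ± 0.42 (SE, unadjusted p = 0.094). *Il18r1*, a receptor chain related to ST2, stood at 25.5 and 20.5 CPM in WT with IL-7 and at 13.7 and 11.5 CPM in WT with IL-33, and at 39.9 and 48.1 CPM in Pac1-/- with IL-7 and 9.46 and 6.97 CPM in Pac1-/- with IL-33, with an interaction of -1.55 ± 0.78 (SE, unadjusted p = 0.079).

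MAP kinases are among the substrates of PAC1. Of 22 MAP kinase and phosphatase genes tested, 2 had an unadjusted p under 0.05 above 0 (background 3.21%) and 0 below, and the median over 13 measured was 0.25. *Mapk3*, encoding ERK1, stood at 12.5 and 6.52 CPM in WT with IL-7 and at 3.67 and 3.61 CPM in WT with IL-33, and at 1.18 and 4.45 CPM in Pac1-/- with IL-7 and 8.87 and 20.2 CPM in Pac1-/- with IL-33. The phosphatase *Dusp1* had an interaction of -0.66 ± 0.75 (SE, unadjusted p = 0.4) and the kinase *Map2k2* of -1.48 ± 0.82 (SE, unadjusted p = 0.11). MAP kinases induce AP-1, EGR and NR4A genes early. Among 21 of these tested, 1 had an unadjusted p under 0.05 below 0 and 0 above (background 2.44% and 3.21%). It was *Fosl1*, at 0 and 0 CPM in WT with IL-7 and at 5.89 and 3.09 CPM in WT with IL-33, and at 0.545 and 1.62 CPM in Pac1-/- with IL-7 and 9.04 and 1.96 CPM in Pac1-/- with IL-33. *Fos* and *Nr4a1* had interactions of 0.54 ± 0.64 (SE, unadjusted p = 0.42) and 0.00 ± 0.53 (SE, unadjusted p = 1), and the median over 15 measured members was 0.50.

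Of 20 genes of the endoplasmic reticulum and integrated stress responses, *Atf4* and *Chac1* lay above 0 and *Dnajb9* below at an unadjusted p under 0.05 (background 3.21% above and 2.44% below), and 13 of 17 measured members had an interaction above 0 (48.9% of all measured genes). *Atf4*, the transcription factor of the integrated stress response, stood at 374 and 252 CPM in WT with IL-7 and at 203 and 199 CPM in WT with IL-33, and at 241 and 270.3 CPM in Pac1-/- with IL-7 and 318 and 415 CPM in Pac1-/- with IL-33, with an interaction of 1.15 ± 0.39 (SE, unadjusted p = 0.017). *Chac1*, an ATF4 target that degrades glutathione, stood at 31.7 and 10.3 CPM in WT with IL-7 and at 0.841 and 0.824 CPM in WT with IL-33, and at 10.6 and 12.4 CPM in Pac1-/- with IL-7 and 12.7 and 7.74 CPM in Pac1-/- with IL-33, with an interaction of 4.46 ± 1.31 (SE, unadjusted p = 0.0085). *Dnajb9*, a chaperone of the reticulum, stood at 202 and 165 CPM in WT with IL-7 and at 258 and 271 CPM in WT with IL-33, and at 226 and 341 CPM in Pac1-/- with IL-7 and 195 and 164 CPM in Pac1-/- with IL-33, with an interaction of -1.19 ± 0.40 (SE, unadjusted p = 0.017). With IL-33 the genotypes did not overlap for *Atf4*, with Pac1-/- above WT, or for *Dnajb9*, with Pac1-/- below WT. Among 23 tumour necrosis factor superfamily and co-signalling genes, *Tnfrsf21* and *Tnfsf8* had an unadjusted p under 0.05 above 0 (background 3.21%) and 0 genes below (background 2.44%). *Tnfsf8*, the CD30 ligand, stood at 108 and 146 CPM in WT with IL-7 and at 62 and 65.3 CPM in WT with IL-33, and at 75.1 and 84.1 CPM in Pac1-/- with IL-7 and 111 and 94.1 CPM in Pac1-/- with IL-33, with an interaction of 1.36 ± 0.43 (SE, unadjusted p = 0.013). Of 18 interferon-stimulated genes *Rtp4* alone had an unadjusted p under 0.05, above 0 (background 3.21%), at 19.4 and 11.5 CPM in WT with IL-7 and at 11 and 8.76 CPM in WT with IL-33, and at 0 and 0 CPM in Pac1-/- with IL-7 and 7.27 and 6.29 CPM in Pac1-/- with IL-33. The *Rtp4* value thus rested on the Pac1-/- libraries with IL-7, where it was undetected. The median interactions were 0.16 for the stress genes (0.87 without the first WT library with IL-33, and 0.01 without the first Pac1-/- library with IL-33), 0.20 for the superfamily and -0.27 for the interferon-stimulated genes. They were 0.28 for 19 ILC2 transcription factors, in which *Gata3* had 0.41 ± 0.38 (SE, unadjusted p = 0.31), 0.30 for 20 cell cycle genes, -0.04 for 14 glycolysis genes, 0.15 for 13 cholesterol synthesis genes and 0.75 for 7 BCL2 family genes, 4 of them above 0. At an unadjusted p under 0.05 the cell cycle list had *Uhrf1* above 0 and *Ube2c* below, of 43 tested. The glycolysis list had *Gpi1* above 0, of 20 tested (background 3.21% above and 2.44% below). The transcription factor (20 tested), cholesterol synthesis (18 tested) and BCL2 (14 tested) lists had 0 in either direction. Leaving out 1 library turned the sign of the median for the superfamily, interferon, transcription factor, cell cycle, glycolysis and BCL2 lists. The medians ranged, when each library was left out, from 0.08 to 0.35 for the MAP kinase list, from 0.08 to 0.41 for the early genes, from 0.02 to 0.62 for the chemokines, from 0.28 to 0.93 for the receptors and from -0.53 to -0.06 for the effector cytokines.

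**Figure D5:**
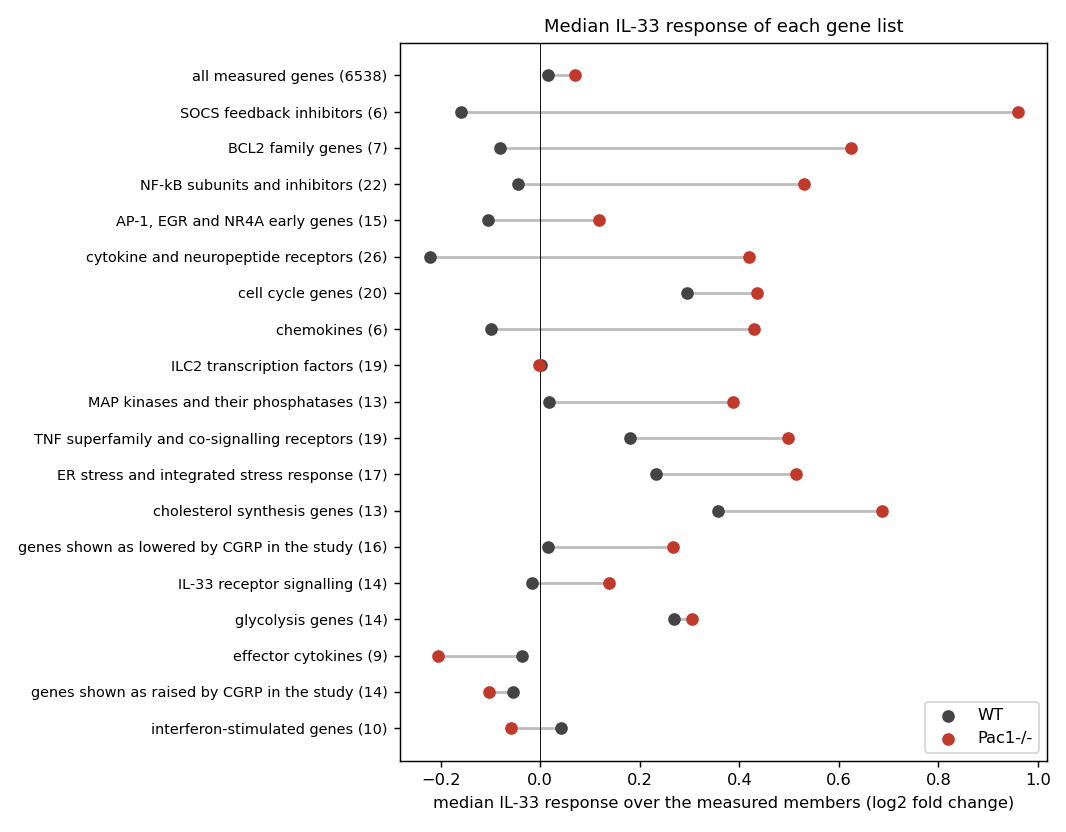
Median log2 response to IL-33 of each gene list over its measured members (number in brackets), in WT (dark points) and Pac1-/- (red points), with a grey line joining them and all measured genes in the top row. The SOCS list stands at -0.16 in WT and 0.96 in Pac1-/- and the NF-κB list at -0.05 and 0.53, while the effector cytokine list stands at -0.04 and -0.21 and all measured genes at 0.02 and 0.07.

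The genes that the study showed as raised or lowered by CGRP were chosen on samples of this series, so their counts are not independent evidence. Of 14 tested genes shown as raised by CGRP, 2 had an unadjusted p under 0.05 below 0 and 0 above (background 2.44% and 3.21%), with a median of -0.21 that was -0.48 without the first WT library with IL-7, -0.47 without the first Pac1-/- library with IL-33 and -0.08 without the second. *Plac8* stood at 1170.1 and 1044 CPM in WT with IL-7 and at 552 and 1013 CPM in WT with IL-33, and at 758 and 553 CPM in Pac1-/- with IL-7 and 206 and 231 CPM in Pac1-/- with IL-33, with an interaction of -1.09 ± 0.44 (SE, unadjusted p = 0.038). *Cystm1* stood at 637 and 675 CPM in WT with IL-7 and at 477 and 670.2 CPM in WT with IL-33, and at 586 and 583 CPM in Pac1-/- with IL-7 and 311 and 272 CPM in Pac1-/- with IL-33, with an interaction of -0.81 ± 0.33 (SE, unadjusted p = 0.04). Both genes were lowest in the Pac1-/- libraries with IL-33. The 14 genes had a median level of 475 CPM, and over all measured genes of 300 to 1000 CPM the median interaction was -0.37. Of 19 tested genes shown as lowered by CGRP, 0 had an unadjusted p under 0.05, with a median of 0.13 that was -0.25 without the first Pac1-/- library with IL-33.

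The 8 libraries outside this comparison, given IL-33 with CGRP or NMU at 500 ng/mL, show the level of *Ccl5* in other samples of the same genotypes. What follows compares levels of Pac1-/- and WT, a measure unlike the interaction, which compares responses. With CGRP *Ccl5* stood at 164 and 161 CPM in WT and 32.6 and 19.3 CPM in Pac1-/-, and with NMU at 51.3 and 29.7 CPM in WT and 19.2 and 7.28 CPM in Pac1-/-, scaled over all 16 libraries. Pac1-/- libraries were thus below WT libraries for *Ccl5* under both neuropeptides. The same held for *Cd3d*, while *Gimap4* overlapped with CGRP. *Tcrg-C2* had the reverse order with CGRP, at 0.0896 and 0.873 CPM in WT and 28.6 and 26.5 CPM in Pac1-/-. With NMU it stood at 3.69 and 6.69 CPM in WT and 0 and 0 CPM in Pac1-/-. *Igkc* reached 373 and 421 CPM in WT and 934 and 827 CPM in Pac1-/- with CGRP. *Ms4a4b* stood at 46.5 and 95.1 CPM in WT and 11.3 and 26.9 CPM in Pac1-/- with CGRP. Of the 10 genes with the smallest p below 0, 6 had both Pac1-/- libraries below both WT libraries with CGRP (*Ccl5*, *Fam204a*, *Sub1*, *Tmem60*, *Dpy30*, *Ankmy2*), an order found in 21% of 6554 genes, and 0 had the opposite order. With NMU 2 of the 10 had that order (*Ccl5*, *Armc8*), against 18.6% of genes, and *Dpy30* had the opposite order. Of the 10 genes above 0, 2 had both Pac1-/- libraries above both WT libraries with CGRP (*Tgfbr1*, *Igkc*, 18.4% of genes), and with NMU 0 had that order (17.7%) while *Igkc* and *Anxa4* had the opposite one. The neuropeptide libraries were not used in the interaction, and their values are descriptions without a test.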

How the data were processed

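Libraries of about 500 ILC2s were aligned by the authors with HISAT2 to mm10. The deposited values are raw counts per gene and library, which the authors tested with DESeq2; the counting tool and strand setting are not given in the sources used here. Of 51912 gene identifiers 51719 had a GENCODE M21 symbol, and 0 count columns were left unmapped. edgeR 4.0.16 (limma 3.58.1, R 4.3.3) fitted 4 group means over the 8 libraries, with TMM scaling, filterByExpr and quasi-likelihood F tests. A call needed a fold above 1.5 and a Benjamini-Hochberg adjusted p under 0.05 over 12980 genes. "Measured" genes had a mean of at least 10 CPM and all 4 groups above 3 counts per library. SE is the log2 value divided by the square root of F, and 95% intervals use the t distribution with the degrees of freedom of the fit. Genes were named by the smallest p (10 per direction of the interaction among those of at least 10 CPM without overlap, called averaged responses, 3 and 1 per list). Other list and marker genes, the DESeq2 calls, and the grouping by abundance were named after their values were seen. The members and lists were chosen with earlier results of these data known. Alternatives were other scalings, filters, dispersion methods, DESeq2 1.42.0, limma voom, all 16 libraries, a replicate block and each library left out. The test was tried on simulated data of 12143 genes for the interaction: edgeR recovered 2%, 12%, 48% and 66% of changes of 2-, 4-, 8- and 16-fold and DESeq2 6%, 30%, 64% and 78%, with 5 of 69 and 92 of 181 calls among unchanged genes. Counts in PCR libraries without molecular identifiers are not independent molecules. The values of 1 listed gene are not reported here.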

Additional observations from a re-analysis of the deposited data

How the results depend on the processing

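With 2 libraries per group and a coefficient of variation between replicates of 0.917, the interaction count stayed at 0 with other scalings, with at least 10 counts in every library, with other edgeR settings, with limma voom and with all 16 libraries. It was 20 genes (8 above 0, 12 below) with no filter on low counts and 44 with DESeq2, and 0 to 6 when 1 library was left out: 6 without the second Pac1-/- library with IL-7, and 2 without either Pac1-/- library with IL-33. The averaged response, with 10 calls, had 6 with library totals only, 280 with no filter, 532 with DESeq2, 22 with limma voom, 5 with all 16 libraries, and 14 to 98 with 1 library left out. The WT response, with 1 call, had 0 with library totals only, with at least 10 counts in every library, with limma voom and with all 16 libraries, 35 with no filter, 103 with DESeq2, and 2 to 15 with 1 library left out. The Pac1-/- response, with 2 calls, had 146 with no filter, 9 with at least 10 counts in every library, 492 with DESeq2, 14 with edgeR's legacy option off (added after seeing the data), 0 with limma voom, and 9 to 47 with 1 library left out; the cause was not tested. The median interaction over the 5 called genes measured in 4 groups was -2.18 to -1.82 with 1 library left out. Over the genes lowered at an unadjusted p under 0.05 it was -0.55, and -0.26 without the second WT library with IL-33. Of 80 named genes, 36 were followed by their interaction and 44 by their averaged response, and none of these values changed sign. The genes were largely followed by the value whose small p had named them. Few sign changes could therefore occur, and their absence says little about robustness. The interactions of all 80 were also followed (added after seeing the data): 20 changed sign with 1 library left out and 10 under another setting, the largest of these being *Myd88* at 0.74.

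The labels number the libraries of each group 1 and 2. With the replicate number as a block the calls were 0 for the interaction, 6 for the averaged response, 0 for WT and 0 for Pac1-/-. The differences between replicates correlated at -0.06 to 0.23 between groups over 4946 genes. With 2 numbers per group and no label that ties a number to an animal, batch or day, the libraries share only a number.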
